A study of Mus musculus with 13 samples.

Results

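The unfolded protein response genes described here were 10 genes chosen by symbol: Hspa5, Hsp90b1, Pdia4, Calr, Herpud1, Xbp1, Atf4, Ddit3, Atf3 and Trib3. All 10 were found among the 23238 symbols of a tissue count table and among the 24542 symbols of a culture count table. The rule uses names alone, but the list was drawn up with earlier results of these data known. In tissue 0 of them passed the test between the treated and control groups, which 0.00644% of all genes passed higher and 0.103% lower. Higher transcript of the delivered genes was not established in those libraries. Nr4a2 was at 27.0 CPM in the treated and 31.5 CPM in the control group. Foxa2 had 26, 5, 1 and 6 counts in treated and 5, 1 and 1 in control libraries. In cultured glia, Pdia4 (4.96-fold and 6.66-fold), Atf3 (21.9-fold and 26.6-fold) and Trib3 (4.97-fold and 5.58-fold) were higher in the amyloid beta control than in the untreated library of hippocampus and cortex. The same rule, at least 2-fold in both regions, was passed in that direction by 16.6% of all genes, and markers of neurons and oligodendrocytes moved with that comparison. With the delivered genes added, 0 of 10 members differed 2-fold in both regions, where 2.07% of all genes were higher and 0.119% lower. Hspa5, Hsp90b1, Calr and Ddit3 were higher again in the glia that also received the delivered genes, in both regions, by 1.32-fold to 1.82-fold of CPM. Trib3 was also higher again, by 1.03-fold and 1.29-fold. Mural and fibroblast markers moved with this comparison in cortical glia, from 143 CPM in the amyloid beta control to 8440 CPM. Their part in these ratios was not tested. In hippocampal glia Pdia4 (0.851-fold) and Atf3 (0.673-fold) were lower. Of all genes 64.4% were higher there by library totals, and 49.7% after correcting the totals for composition. The glia values rest on 1 library per group.

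The study measured messenger RNA by sequencing in 13 mouse libraries. Its title names delivery of Nurr1 (gene symbol Nr4a2) and Foxa2, transcription factors written N+F here, to a model of Alzheimer disease. The tissue libraries came from the hippocampus of 3xTg mice, which carry mutant human transgenes for the amyloid precursor protein and for tau, expressed from the neuronal Thy1 promoter, and a mutant presenilin knock-in. Adeno-associated virus 9 (AAV9) without the factors was given in 3 of these libraries, the controls, and AAV9 with N+F in the other 4. Amyloid beta is the treatment label of all 7. The age of these mice is not given in the labels. The culture libraries were glia of ICR pups at postnatal day 1, with 1 library per group. There were 3 groups for hippocampal and the same 3 for cortical glia. Untreated glia had control lentivirus and no amyloid beta, the amyloid beta control had control lentivirus plus amyloid beta, and N+F glia had the N+F lentivirus plus amyloid beta. All culture groups therefore share a lentivirus, and the last pair in each region also shares amyloid beta. The labels do not say whether tissue replicates are separate animals, and the spread behind the p-values may be technical.

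The unfolded protein response is the reaction of a cell to misfolded protein in the endoplasmic reticulum (ER), where secreted and membrane proteins fold. Its sensors IRE1, PERK and ATF6 raise the output of chaperones and of the machinery that removes misfolded proteins, and PERK also slows protein synthesis while favouring translation of the transcription factor ATF4. Prolonged activation induces Ddit3, which encodes the pro-apoptotic factor CHOP. In the brain the response has been studied in neurodegeneration, amyloid disease included.

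The response is known to act through short promoter elements, so the 5 member promoters that hold a searched element are printed before the expression values. All 10 members had an entry in the RefSeq promoter table (build GRCm38.p6), and each sequence is the 250 bases before the annotated start, read 5′ to 3′ on the strand of the gene, with motif matches in capitals. Hspa5, Hsp90b1 and Calr are shown for the ER stress response element (ERSE: CCAAT, then any 9 bases, then CCACG), Herpud1 for the second form of that element (ERSE-II: ATTGG, any base, CCACG), and Atf3 for the element bound by ATF4 (CARE: TGATG, any base, AA). Hspa5 lies at chr2:34771840-34772089 (plus strand), Hsp90b1 at chr10:86705445-86705694 (minus strand), Calr at chr8:84846932-84847181 (minus strand), Herpud1 at chr8:94386179-94386428 (plus strand) and Atf3 at chr1:191183334-191183583 (minus strand).
Hspa5: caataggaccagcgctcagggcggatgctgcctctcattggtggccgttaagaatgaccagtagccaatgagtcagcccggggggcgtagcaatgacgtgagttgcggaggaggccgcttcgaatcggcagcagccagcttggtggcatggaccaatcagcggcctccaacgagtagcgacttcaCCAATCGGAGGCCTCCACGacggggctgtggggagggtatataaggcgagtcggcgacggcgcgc
Hsp90b1: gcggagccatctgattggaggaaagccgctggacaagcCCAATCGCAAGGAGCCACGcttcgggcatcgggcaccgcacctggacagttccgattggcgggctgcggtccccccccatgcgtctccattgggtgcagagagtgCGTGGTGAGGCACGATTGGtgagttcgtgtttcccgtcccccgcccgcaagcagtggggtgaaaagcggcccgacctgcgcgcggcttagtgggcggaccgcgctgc
Calr: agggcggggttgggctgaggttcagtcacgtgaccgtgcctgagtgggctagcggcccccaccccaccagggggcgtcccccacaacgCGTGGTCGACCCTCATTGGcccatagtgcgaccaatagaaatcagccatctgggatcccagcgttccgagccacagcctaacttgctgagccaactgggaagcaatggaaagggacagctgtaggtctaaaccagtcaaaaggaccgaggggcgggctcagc
Herpud1: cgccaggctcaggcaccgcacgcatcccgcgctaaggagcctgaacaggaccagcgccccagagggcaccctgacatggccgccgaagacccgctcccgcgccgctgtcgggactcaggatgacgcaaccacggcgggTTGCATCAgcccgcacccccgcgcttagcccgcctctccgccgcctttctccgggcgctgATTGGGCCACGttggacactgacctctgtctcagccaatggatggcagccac
Atf3: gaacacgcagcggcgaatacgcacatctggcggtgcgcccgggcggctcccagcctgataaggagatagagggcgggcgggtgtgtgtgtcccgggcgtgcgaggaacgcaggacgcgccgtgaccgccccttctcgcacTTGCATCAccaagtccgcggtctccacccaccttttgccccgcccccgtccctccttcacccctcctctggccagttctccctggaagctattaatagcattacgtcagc
Both strands were searched. ERSE was in 3 of the 10 member windows, against 37 of all 32851 windows of that length (0.113%). In Hspa5 it lay on the strand of the gene, 65 to 47 bases before the start. Hsp90b1 had a match on the strand of the gene at 212 to 194 bases and another on the opposite strand at 107 to 89 bases, and Calr had it on the opposite strand at 162 to 144 bases. ERSE-II was in 1 member window, that of Herpud1 at 52 to 42 bases on the strand of the gene, and in 10 of all windows (0.0304%). CARE was in 2 member windows, on the opposite strand of Atf3 at 110 to 103 bases and of Herpud1 at 112 to 105 bases, and in 1134 of all windows (3.45%). No matches in a window overlapped each other. The XBP1-related core TGACGTGG was in 0 of the 10 member windows and 0.563% of all windows, and the cyclic AMP response element TGACGTCA was in 0 of 10 and 1.55% of all. The genes and the elements were both chosen as known parts of the response, so these shares are not a test of enrichment. A match is a description of the letters, and no binding was measured.

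Library totals ran from 10194437 to 25139406 counts in tissue and from 52189025 to 78273121 counts in culture. Levels are given in CPM, which sets each count against the total of its library. The delivered genes were checked first. In tissue Nr4a2 was 31.5 ± 12.7 CPM (SD, n = 3) in control and 27.0 ± 4.85 CPM (SD, n = 4) in N+F libraries after TMM scaling, which corrects library totals for composition, and the groups overlapped. Foxa2 had 5, 1 and 1 counts in control libraries and 26, 5, 1 and 6 counts in N+F libraries, and an exact two-sided permutation test gave p = 0.114. The smallest p that this permutation test can give here is 0.0571. It could not pass 0.05 and does not settle whether Foxa2 differed. In culture both were highest in the N+F library of each region. Nr4a2 had 3.35 CPM in the amyloid beta control and 488 CPM in N+F hippocampal glia, and 5.14 and 36.9 CPM in cortical glia. Foxa2 had 0 counts in the amyloid beta controls and reached 140.3 CPM in hippocampal and 13.5 CPM in cortical N+F glia.

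Markers of other cell types moved with the groups. The untreated glia libraries held neuronal transcripts: 8 neuron markers summed to 7444 and 8214 CPM there, against 367 to 395 CPM in the 4 libraries with amyloid beta. The range in hippocampal tissue was 3705 to 5083 CPM. Oligodendrocyte markers (6 genes) summed to 8807 and 7424 CPM in the untreated libraries and 171 to 438 CPM in the others, and the 6 astrocyte markers to 2785 and 2906 CPM against 4759 to 7649 CPM. Microglial markers summed to 315 and 328 CPM against 8.85 to 63.6 CPM. The 6 choroid plexus markers summed to 4347 and 497 CPM against 1.23 to 8.37 CPM, and the 6 endothelial markers to 146 and 150.5 CPM against 7.79 to 101 CPM. No marker of these lists was at 0 in the untreated libraries, while Rbfox3, a marker of mature neurons, was at 0 in N+F hippocampal glia, and the oligodendrocyte markers Mog and Mobp were at 0 in the cortical amyloid beta control. The untreated libraries thus stand apart from the others and go against a label of glia alone. They enter every comparison with untreated glia, which has no value without them, and they do not enter the N+F ratios. The N+F cortical library held 8440 CPM of 6 mural and fibroblast markers, against 106 to 331 CPM in the other 5 culture libraries. In tissue 3 of 6 excitatory hippocampal neuron markers were called lower in N+F by edgeR, which called 0.103% of all genes lower, with sums of 184 to 255 CPM in control and 141 to 180 CPM in N+F libraries. With any 1 of the N+F libraries or control 3 left out, or with a replicate block, edgeR called 0 genes lower. The 6 endothelial markers all had negative differences with 0 called, and their sums of 31.3 to 49.5 CPM in control and 19.95 to 28.3 CPM in N+F libraries did not overlap. Of 6 mural and fibroblast markers 1 was called lower there, with sums of 53.9 to 322 and 25.9 to 53.0 CPM, and 7 striatal neuron markers summed to 288 to 2030 and 1416 to 2495 CPM with 0 called. All 6 mural and fibroblast, all 6 oligodendrocyte and all 6 choroid plexus markers also had negative differences, as did 4 of 6 astrocyte and 4 of 6 microglial markers. The choroid plexus markers summed to 1132 to 2855 CPM in control and 163 to 3935 CPM in N+F libraries. In bulk samples, fewer cells of a type and less RNA per cell cannot be told apart. The part of these differences in the results below was not tested.

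The question for tissue was whether delivery of N+F went with different levels of the response genes in the 3xTg hippocampus. Of the 9 members that passed the count filter, edgeR's quasi-likelihood test called 0 higher and 0 lower at an adjusted p of 0.05. Over all 15523 genes tested, 0.00644% were called higher and 0.103% lower, so a count of 0 among 9 genes is at the background. At an unadjusted p under 0.05 the members numbered 0, against 1313 of all genes (8.46%), and DESeq2 also called 0 of the 9. The members' log2 differences, N+F minus control, ran from -0.11 to 0.53, with 5 positive and 4 negative. Their median was 0.11, beside -0.00 over all genes. The groups overlapped for all 10 members, while 8.11% of all tested genes had groups that did not overlap.

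Hspa5 encodes BiP, the abundant ER chaperone that also holds the sensors inactive. It was at 194, 182 and 233 TMM-scaled CPM in the control libraries and 199, 201, 223 and 255 CPM in the N+F libraries. The highest value was an N+F library and the lowest a control, but control 3 exceeded 3 of the 4 N+F libraries. The difference was 0.11 ± 0.14 on the log2 scale (SE; 95% interval -0.19 to 0.42; edgeR adjusted p = 0.894). Hsp90b1, the ER member of the HSP90 chaperone family, was at 613, 551 and 602 CPM in control and 612, 608, 682 and 645 CPM in N+F libraries. Of its N+F libraries 2 lay above every control and 2 within the control range, and the log2 difference was 0.11 ± 0.12 (SE; 95% interval -0.16 to 0.38).

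Calr encodes calreticulin, a calcium-binding chaperone of glycoproteins. Its libraries ranged from 624 to 895 CPM in control and from 534 to 904 CPM in N+F, so the N+F group spanned the whole control range. Pdia4, a disulfide isomerase, was 49.3 ± 5.51 CPM (SD, n = 3) in control and 47.4 ± 6.67 CPM (SD, n = 4) in N+F libraries. Herpud1 takes part in ER-associated degradation of misfolded proteins. It was 23.5 ± 1.13 CPM in control and 22.5 ± 3.32 CPM in N+F libraries, and Xbp1, whose transcript IRE1 splices to make an active transcription factor, was 40.4 ± 8.80 and 39.2 ± 5.62 CPM. The spliced form of Xbp1 is not separated in these gene counts. For Calr, Pdia4, Herpud1 and Xbp1 the log2 differences were -0.11, -0.06, -0.06 and -0.04, all inside their standard errors, which were 0.19, 0.14, 0.15 and 0.17. The sign of each of these 4 turned when some single library was left out.

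The transcription factors of the PERK arm had positive differences that their spread did not separate from 0. Atf4, the factor translated when protein synthesis is slowed, was at 218, 145 and 142 CPM in control and 163, 246, 178 and 207 CPM in N+F libraries. Control 1 lay above 3 of the 4 N+F libraries, and the log2 difference was 0.24 ± 0.19 (SE; 95% interval -0.17 to 0.64; edgeR adjusted p = 0.810). Ddit3 was at 67.7, 75.3 and 72.2 CPM in control and 85.9, 97.1, 95.6 and 60.7 CPM in N+F libraries. Here 3 N+F libraries lay above every control and N+F 4 lay below every control. The log2 difference of Ddit3 was 0.24 ± 0.16 (SE; 95% interval -0.11 to 0.59; edgeR adjusted p = 0.755), and over 12 other settings its adjusted p ran from 0.346 to 0.925. Ddit3 overlaps Mars on the opposite strand, and no source used here says whether reads were assigned by strand.

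Atf3, an early-induced factor that acts with ATF4 and CHOP, was at 1.86, 2.17 and 1.58 CPM in control and 2.91, 4.47, 2.37 and 1.12 CPM in N+F libraries. As for Ddit3, N+F 4 was the lowest of all 7 and the other 3 N+F libraries were above every control. The log2 difference of Atf3 was 0.53 ± 0.44 (SE; 95% interval -0.43 to 1.49; edgeR adjusted p = 0.819). Trib3, a pseudokinase induced by CHOP, was too low for the count filter, with 12, 7 and 10 counts in control and 2, 7, 6 and 0 counts in N+F libraries. As CPM of the library total it was 0.617 ± 0.162 (SD, n = 3) and 0.339 ± 0.292 (SD, n = 4). An exact two-sided permutation test gave p = 0.286, where the smallest possible p is 0.0571, and the 0 counts of N+F 4 allow up to 0.245 CPM. N+F 4 was thus lowest for Ddit3, Atf3 and Trib3 while it was highest for Hspa5 and Herpud1. That library also held 3935 CPM of choroid plexus markers, against 163 to 842 CPM in the other N+F libraries. Its astrocyte (1461 CPM) and microglial (172 CPM) marker sums were the lowest of the 7. The part of these marker differences in its member values was not tested.

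**Figure D1:**
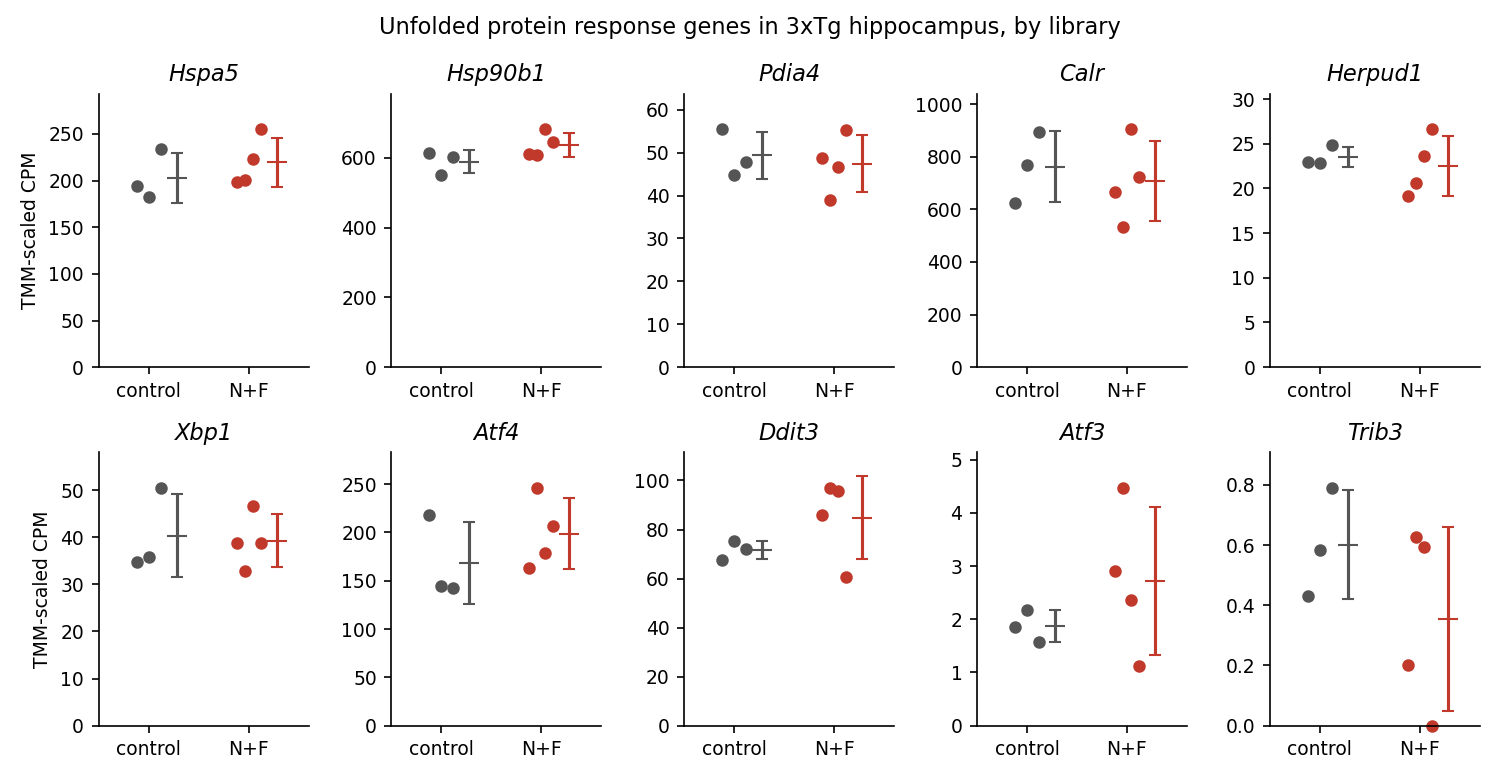
TMM-scaled CPM of the 10 genes in each 3xTg hippocampus library, with 3 control (grey) and 4 N+F (red) points; horizontal marks and bars give the mean ± SD, and each vertical axis starts at 0. The groups overlap in every panel, and in the Ddit3 and Atf3 panels 3 N+F points lie above all controls and 1 below.

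Genes of the wider response, taken from lists chosen by function with earlier results of these data known, were not called in tissue either. Called in either direction were 0 of 21 further ER chaperones and folding enzymes, 0 of 14 degradation genes, 0 of 13 sensors and eIF2 kinases and 0 of 22 ATF4 and CHOP targets. At an unadjusted p under 0.05 these lists held 1, 0, 2 and 2 genes. Their median log2 differences were -0.01, -0.06, -0.08 and -0.03. The cytosolic heat shock genes, a separate stress response, had 0 of 10 called and a median of -0.03. The 10 immediate early genes, which follow neuronal activity, had a median of 0.43 with 0 called by edgeR, 4 of them at an unadjusted p under 0.05. Of those 4, Fos, Egr1 and Nr4a1 had positive differences and Jun a negative one (-0.65). DESeq2, which called 60 genes higher and 71 lower of 15170, called Fos (log2 difference 0.80, adjusted p = 0.0253) and Nr4a1 (1.01, adjusted p = 0.0394) of that list higher.

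In culture the question of the first comparison was how glia with control lentivirus and amyloid beta differ from untreated glia of the same region. With 1 library per group there is no replicate check, intervals cover counting error only, and the neuronal and oligodendrocyte markers given above move with this comparison. Values are CPM of the library total. By ratios of CPM + 1, differences at least 2-fold in both regions were found for 3 of 10 members in the higher direction, Pdia4, Atf3 and Trib3, and for 0 in the lower direction. Over 14516 genes, 16.6% passed that rule higher and 21.5% lower. Atf3 and Trib3 were under 1 CPM in untreated glia, so the added 1 CPM lowers their ratios. On the scale of the rule their log2 ratios were 3.34 and 3.62 for Atf3 and 1.25 and 1.54 for Trib3. With a pseudocount of 5 CPM Trib3 (log2 ratios 0.47 and 0.65) no longer passed, and with the largest line of each symbol Hspa5 (1.08 and 2.04) passed as well. In hippocampal glia alone 3 members passed higher (background 21%) and 1 lower, Atf4 (background 25.6%). In cortical glia alone 5 passed higher, Hspa5 and Calr in addition (background 19.8%), and 0 lower (background 25.4%). The members' median log2 ratio was 0.55 in hippocampal and 1.00 in cortical glia, beside -0.03 and -0.01 over all genes. In each region 7 members were higher and 3 lower.

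The ER chaperones were all higher in the amyloid beta controls, by different amounts. Pdia4 had 42.6 CPM untreated and 211 CPM with amyloid beta in hippocampal glia, a 4.96-fold difference (95% counting interval 4.76 to 5.16). In cortical glia Pdia4 had 33.0 and 219.9 CPM, a 6.66-fold difference (6.33 to 7.0). Hspa5 started at 194 CPM in both untreated libraries. It was at 372 CPM with amyloid beta in hippocampal glia, 1.92-fold higher (1.88 to 1.96), and at 621 CPM in cortical glia, 3.21-fold higher (3.14 to 3.28). The Calr levels were 376 and 544 CPM in hippocampal glia (1.45-fold) and 323 and 725 CPM in cortical glia (2.24-fold). Hsp90b1 had the smallest ratio of the 4 in both regions, 345 to 494 CPM (1.43-fold) and 368 to 580.2 CPM (1.58-fold).

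The degradation gene Herpud1 and the transcription factor Xbp1 went the other way. Herpud1 had 40.8 CPM untreated and 22.2 CPM with amyloid beta in hippocampal glia, and 46.6 and 23.8 CPM in cortical glia. Its ratios were 0.543 (0.511 to 0.577) and 0.511 (0.479 to 0.546). Xbp1 had 59.3 and 32.5 CPM in hippocampal and 75.4 and 37.7 CPM in cortical glia, ratios of 0.547 and 0.50. Xbp1 has 2 lines in the culture table, and the files do not say what a line is. The smaller line had 269 and 234 counts in the untreated and 0 counts in both amyloid beta control libraries, and 492 and 441 counts with N+F. With the larger line alone the log2 ratios of Xbp1 with amyloid beta were -0.75 and -0.89, in place of -0.85 and -0.98 for the sum.

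Atf4 differed between regions. It was at 128 CPM untreated and 52.4 CPM with amyloid beta in hippocampal glia, a ratio of 0.408 (0.393 to 0.424). In cortical glia Atf4 was at 152 and 150.4 CPM, a ratio of 0.988 (0.958 to 1.02), which covers no difference. Ddit3, Atf3 and Trib3, known targets of ATF4, were higher in both regions. Ddit3 had 15.1 and 22.9 CPM in hippocampal glia (1.52-fold) and 19.8 and 36.2 CPM in cortical glia (1.83-fold). Atf3 had 0.769 and 16.9 CPM in hippocampal glia, 21.9-fold higher (16.6 to 29.5), and 0.786 and 20.9 CPM in cortical glia, 26.6-fold higher (19.5 to 37.3). Trib3 was low throughout, with 0.533 and 2.65 CPM in hippocampal glia (4.97-fold, 3.47 to 7.31) and 0.709 and 3.95 CPM in cortical glia (5.58-fold, 3.93 to 8.11).

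**Figure D2:**
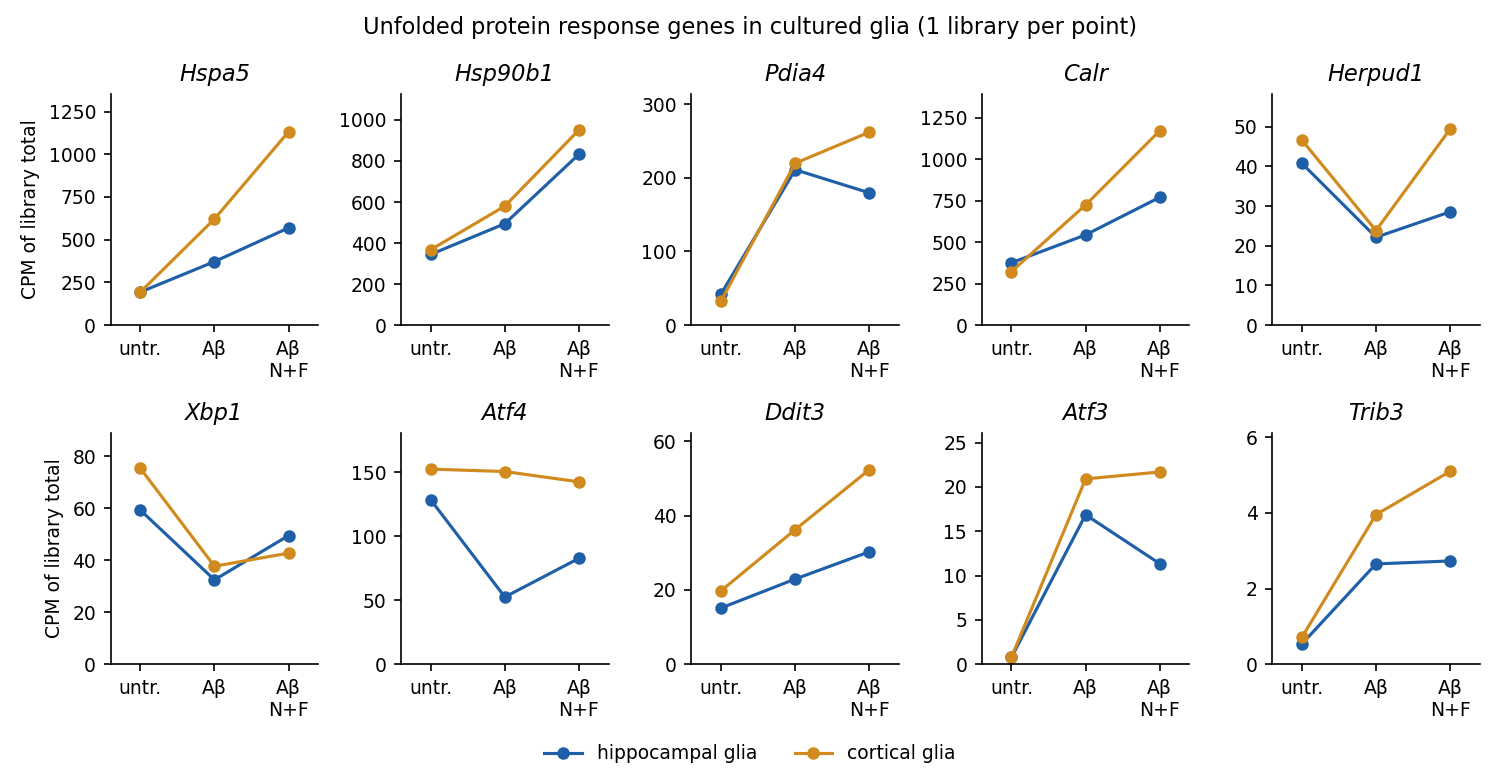
CPM of the library total for the 10 genes in cultured glia, 1 library per point, untreated, with amyloid beta (Aβ) and with amyloid beta and N+F; blue is hippocampal and orange cortical glia, lines join libraries of a region, and each vertical axis starts at 0. Pdia4, Atf3 and Trib3 step up at amyloid beta in both regions, and Herpud1 and Xbp1 step down. Hspa5, Hsp90b1, Calr and Ddit3 are higher at each step, as is Trib3, whose last hippocampal step is small (2.65 and 2.73 CPM).

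A fit over both regions took the regions as 2 observations of each condition, so its error term is the disagreement between regions. With 2 residual degrees of freedom over 16762 genes, edgeR called Pdia4 (adjusted p = 0.00847), Atf3 (adjusted p = 0.00421) and Trib3 (adjusted p = 0.0386) higher with amyloid beta, where 15.9% of all genes were called higher. Xbp1 (adjusted p = 0.0337) was the member called lower, where 17.2% of all genes were. Hspa5 missed the threshold at an adjusted p of 0.0562 in edgeR and passed it in DESeq2. DESeq2 called 4 members higher and 1 lower, and 20% of all genes higher and 22.9% lower. With the largest line of each symbol in place of the sum of its lines, edgeR called Pdia4 and Atf3 higher and 0 members lower. In that fit 13.3% of all genes were called higher and 13.7% lower. Leaving out an amyloid beta control or an untreated library leaves that condition with 1 library. In each of these 4 fits Trib3 and Xbp1 no longer passed, and fewer of all genes did. Pdia4 also no longer passed without the hippocampal amyloid beta control. Without the cortical N+F library 7 members were called higher and 2 lower, and without the hippocampal N+F library 6 and 2. The share of all genes called moved with these counts. It was 22.5% higher and 23.8% lower without the cortical N+F library, and 21.8% and 23.1% without the hippocampal N+F library.

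The wider lists gave a like mixture, beside 16.6% of all genes at least 2-fold higher in both regions and 21.5% lower. Of 21 further ER chaperones and folding enzymes, 8 were at least 2-fold higher in both regions and 1 lower, with median log2 ratios of 1.07 in hippocampal and 0.93 in cortical glia. Canx, the membrane-bound relative of calreticulin, had log2 ratios of 2.14 and 1.26, and Manf, a secreted ER stress protein, 1.57 and 1.79. The disulfide isomerases P4hb (1.73 and 1.95) and Txndc5 (1.80 and 1.94) were also among the 8. Of 14 degradation genes 2 were higher and 0 lower, Edem2 (1.23 and 1.12) and Derl2 (1.27 and 1.20), which recognise and export misfolded proteins.

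Of 13 sensors, proteases and eIF2 kinases 3 were higher in both regions and 0 lower. The shares over all genes, 16.6% higher and 21.5% lower, stand beside this and the next counts. The 3 higher genes were Eif2ak2 (4.06 and 4.43), the kinase that senses double-stranded RNA, and the membrane-bound factors Creb3l1 (3.46 and 3.44) and Creb3l2 (1.39 and 1.88). Of 24 ATF4 and CHOP targets 9 were higher and 1 lower, with medians of 0.69 and 1.04. Sesn2 (3.06 and 2.67), a stress-induced regulator of growth signalling, Slc3a2 (3.11 and 1.82), an amino acid transporter subunit, Nupr1 (3.31 and 2.21) and Eif4ebp1 (3.70 and 2.08), a repressor of translation, led them. Among 10 cytosolic heat shock genes 2 were higher, Hspb1 (3.78 and 4.07) and Bag3 (3.49 and 3.87), and Hsph1 was lower (-1.56 and -1.43). Of 10 immediate early genes 4 were lower, Egr1 (-1.77 and -3.83), Nr4a1 (-3.03 and -4.77), Arc (-4.75 and -6.02) and Npas4 (-2.92 and -3.09), and 1 higher.

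The second comparison in culture set N+F glia against amyloid beta control glia of the same region, the contrast that asks how N+F glia differ when all have amyloid beta. The members at least 2-fold higher in both regions numbered 0, where the background was 2.07%, and those lower 0, where it was 0.119%. In hippocampal glia alone 0 passed higher (background 5.6%) and 0 lower (0.767%). In cortical glia alone Herpud1 passed higher (background 12.9%) and 0 lower (15.1%). The additive edgeR fit called 0 members in either direction, and 0% of all genes higher and 0% lower. At an unadjusted p under 0.05 it held 1 member, Hsp90b1, and 1156 genes (6.90%). DESeq2 called 0 members and 477 genes. The members' edgeR adjusted p ran from 0.708 to 0.970, and without both untreated libraries, a fit added after the data were seen, edgeR again called 0.

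Below 2-fold, most members were higher with N+F. In hippocampal glia 8 of 10 members were higher, with a median log2 ratio of 0.44, beside 64.4% of all genes and a median of 0.12. In cortical glia 9 of 10 were higher, with a median of 0.41, beside 42.4% of all genes and a median of -0.16. TMM scaling shifted the median log2 ratio of all genes by -0.12 in hippocampal and 0.16 in cortical glia, to -0.00 and 0.00. On that scale 7 of 10 and 10 of 10 members were higher, beside 49.7% and 50.1% of all genes, and the members' medians were 0.32 and 0.57. The sign differed between scalings for Trib3 in hippocampal glia (0.03 and -0.06) and for Atf4 in cortical glia (-0.08 and 0.09). On the TMM scale Hspa5 in cortical glia, at 1.04, was past 2-fold as well as Herpud1, at 1.19.

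Hspa5 was at 569 CPM in hippocampal and 1132 CPM in cortical N+F glia, against 372 and 621 CPM in the amyloid beta controls. Those are 1.53-fold (1.51 to 1.56) and 1.82-fold (1.80 to 1.84) differences, or 0.48 and 1.04 on the TMM log2 scale. Hsp90b1 had 833 and 951 CPM, 1.68-fold and 1.64-fold above its amyloid beta controls (0.62 and 0.88 on the TMM log2 scale). Calr had 771 and 1172 CPM, 1.42-fold and 1.62-fold (0.37 and 0.87). For these 3 chaperones the N+F library was the highest of the 3 in each region under both scalings of that ratio. Pdia4 did not follow them, at 179.6 and 262 CPM, 0.851-fold (0.831 to 0.872) in hippocampal and 1.19-fold (1.17 to 1.22) in cortical glia.

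Herpud1 was at 28.5 CPM in hippocampal and 49.4 CPM in cortical N+F glia, 1.29-fold (1.20 to 1.38) and 2.07-fold (1.95 to 2.20) above the amyloid beta controls. The untreated libraries had 40.8 and 46.6 CPM, so the hippocampal N+F level was below and the cortical level above its untreated library. Xbp1 had 49.5 and 42.8 CPM, 1.53-fold and 1.13-fold, and with its larger line alone the log2 ratios were 0.34 and -0.02. Atf4 had 82.6 CPM in hippocampal glia, 1.58-fold (1.51 to 1.64), and 142 CPM in cortical glia, 0.946-fold (0.920 to 0.973). Ddit3 had 30.2 and 52.4 CPM, 1.32-fold (1.24 to 1.41) and 1.45-fold (1.37 to 1.52). Trib3 differed by less in both regions, with 2.73 and 5.10 CPM, 1.03-fold (0.832 to 1.27) and 1.29-fold (1.10 to 1.52). Atf3 had 11.3 and 21.7 CPM, 0.673-fold (0.612 to 0.739) and 1.04-fold (0.964 to 1.12). From amyloid beta control to N+F glia the summed mural and fibroblast markers were 325 and 331 CPM in hippocampal and 143 and 8440 CPM in cortical glia. The astrocyte markers were 6794 and 4759 CPM and 7649 and 6238 CPM, and the endothelial markers 10.7 and 13.3 CPM and 7.79 and 101 CPM. Their part in these ratios was not tested.

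**Figure D3:**
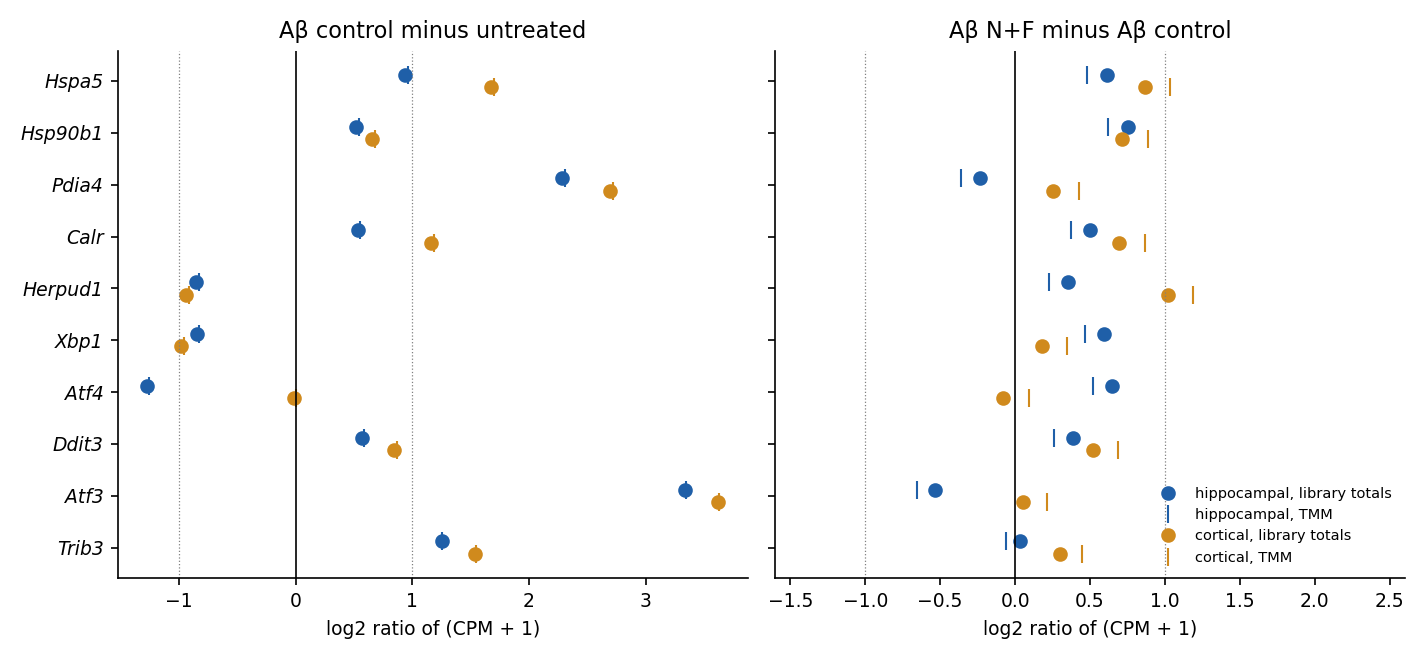
Log2 ratios of CPM + 1 for the 10 genes in both culture comparisons, amyloid beta control against untreated and N+F against amyloid beta control, in hippocampal (blue) and cortical (orange) glia, with 1 library on each side of a ratio and dotted lines at 2-fold. Circles use library totals and ticks TMM scaling. Atf3 and Pdia4 lie farthest to the higher side with amyloid beta, and with N+F Herpud1 in cortical glia is the single circle past 2-fold, joined on the TMM scale by Hspa5.

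Beyond the members, the wider lists held few genes at least 2-fold different in both regions with N+F, as did all genes (2.07% higher and 0.119% lower). Of the further ER chaperones 0 of 21, of the degradation genes 0 of 15 and of the sensors 0 of 13 did so in either direction, and of 24 ATF4 and CHOP targets 1 did, in the higher direction. The medians of the further ER chaperones were 0.13 in hippocampal and 0.54 in cortical glia. P4hb (0.10 and 1.09) and Txndc5 (0.08 and 1.02) were near level in hippocampal and 2-fold higher in cortical glia, and Manf was 0.07 and -0.17. The ATF4 and CHOP targets had medians of -0.07 and 0.42, with Slc3a2 lower in both regions (-1.29 and -0.62) and Nupr1 higher (0.37 and 1.78). In cortical glia alone, 5 further ER chaperones were at least 2-fold higher and 0 lower. For the ATF4 and CHOP targets these counts were 9 and 3, for the degradation genes 1 and 0, and for the sensors 2 and 1. Over all genes 12.9% were higher there and 15.1% lower. Of 10 cytosolic heat shock genes 0 passed in both regions, and in cortical glia alone 3 were higher and 1 lower. Hspa1a had log2 ratios of 0.16 and 4.30 and Hspa1b 0.28 and 4.47. Of 10 immediate early genes 1 passed in both regions, Egr1 (1.70 and 2.67). In cortical glia alone 7 of them were higher and 0 lower, and their medians were 0.44 and 1.24. Each cortical ratio rests on 1 library per group. In the additive edgeR fit 0 genes of these lists were called, and 0% of all genes in either direction.

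**Figure D4:**
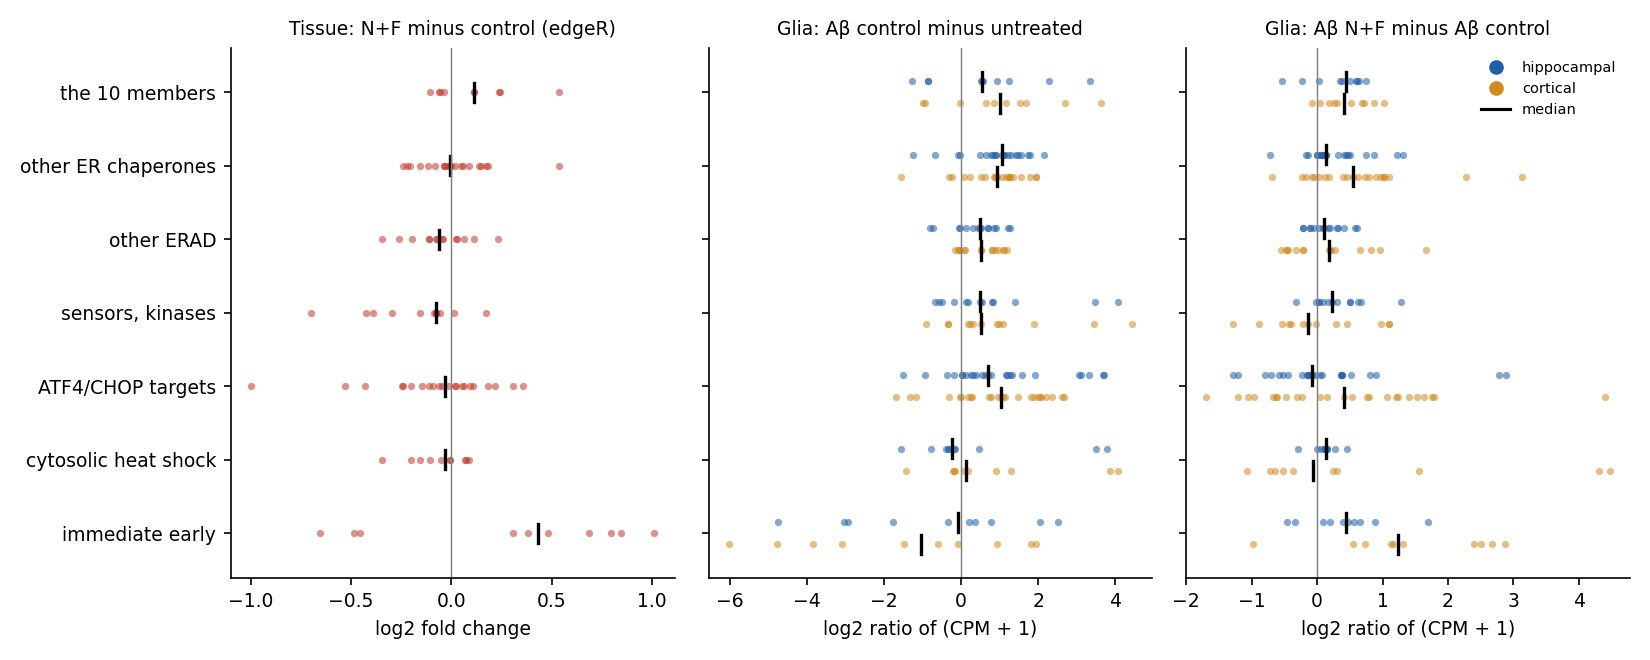
Log2 differences of the members and of each wider list in tissue (edgeR, N+F minus control) and in both culture comparisons (log2 ratio of CPM + 1, blue hippocampal and orange cortical). Each point is a gene and each black mark the median of its list. With amyloid beta the medians of the further ER chaperones are 1.07 and 0.93, and in tissue those of the wider response lists lie between -0.08 and -0.01.

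Across regions, most members were lower in hippocampal than in cortical glia in each condition, untreated glia included. In untreated glia the median log2 difference, hippocampal minus cortical, was -0.12, beside 0.00 over all genes. There 8 of 10 members were higher in cortical glia, beside 49.5% of all genes. In the amyloid beta controls 10 of 10 were higher in cortical glia, beside 49.1% of all genes, with a median of -0.35 beside 0.01. The widest of these was Atf4 at -1.50, followed by Hspa5 at -0.74. With N+F 9 of 10 were higher in cortical glia by library totals and 10 of 10 by TMM scaling, beside 32.2% and 48.0% of all genes. The medians were -0.74 and -1.01 beside 0.33 and 0.04 over all genes. By library totals Xbp1 was the exception, at 0.21. Each value compares single libraries, so region, culture and library cannot be told apart.

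Genes with the most similar profile were found by the root mean square difference of log2(CPM + 1), each gene centred over the libraries of its table. Over the 7 tissue libraries, among 11624 genes, Amer2 (0.0349), Bcl2l13 (0.0449) and Clptm1l (0.0505) were nearest to Hspa5. The nearest to Ddit3 were Rps26 (0.0397), Rpl29 (0.0616) and Gm2002 (0.0672). No member was among them, and the nearest member to Hspa5 in tissue was Herpud1 at rank 302. Over the 6 culture libraries, among 12326 genes, Kif18a (0.174), Adam9 (0.208) and Grn (0.211) were nearest to Hspa5, and Calr was the nearest member at rank 44. Naaladl2 (0.104), Rarb (0.137) and Mthfd2 (0.150) were nearest to Ddit3 in culture, with Calr at rank 14 and Hsp90b1 at rank 49.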

How the data were processed

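The authors deposited raw counts of reads per gene symbol, in 1 table for the 7 tissue and 1 for the 6 culture libraries. TopHat, HISAT2 and edgeR, with the human build hg19, are named without version or role, per the submitters' processing notes, although the tables hold mouse symbols. The annotation, the read assignment to strands and the meaning of repeated lines are not given in the sources used here. RNA was taken with Trizol and 1.3 µg entered SMARTER libraries, per the labels' protocols. Groups came from the sample labels and 0 value columns were left unused.

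Lines of a symbol were summed (44 repeats of 23282 lines in tissue, 12238 of 36780 in culture; 4 members, Hspa5, Xbp1, Atf4 and Ddit3, have several lines in culture). A read counted in several lines would then count more than once. Tissue replicates differed beyond counting noise, with a chi-square of 15.0 to 56.1 per gene, so none was a repeat deposit.

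Tissue was tested with edgeR 4.0.16 in R 4.3.3 (filterByExpr, TMM factors 0.895 to 1.11, quasi-likelihood test, Benjamini-Hochberg adjustment over 15523 genes, threshold 0.05); Trib3 and Foxa2, below the filter, by exact two-sided permutation. The biological coefficient of variation was 0.206. Culture ratios are log2 of CPM + 1 for genes of at least 1 CPM in a library of the pair, with a 2-fold threshold; intervals on folds are exact binomial at 95%, and both intervals and the floor of 3 counts cover counting error only. An additive edgeR fit of region and condition (16762 genes, coefficient of variation 0.417) was the secondary test, and DESeq2 1.42.0 the alternative. The fitting script was tested on simulated data.

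All members are named, with up to 4 genes of each wider list: those past the tissue test, then those with the largest mean log2 ratio among genes at least 2-fold different the same way in both regions in either culture comparison. The 3 genes nearest to Hspa5 and Ddit3 needed a mean of at least 5 CPM. Members, lists and markers were chosen with earlier results of these data known. Promoters came from RefSeq and gene overlaps from GENCODE, both GRCm38. The build behind the counts was not established, so promoter coordinates describe RefSeq and not the reads. Hsp90b1, Pdia4, Herpud1, Atf3 and Ddit3 overlap another annotated gene and Calr has a pseudogene, so their counts may hold other reads.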

Additional observations from a re-analysis of the deposited data

Results flagged for a closer look

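Pdia4 and Atf4 moved in opposite directions in the 2 regions when N+F glia were set against amyloid beta control glia. Pdia4, the disulfide isomerase, was 0.851-fold in hippocampal and 1.19-fold in cortical glia. Atf4 was 1.58-fold in hippocampal and 0.946-fold in cortical glia, and on the TMM scale the cortical log2 ratio of Atf4 was 0.09, so that its opposite direction rests on the scaling. With 1 library per group these differences between regions were not tested. Among the 10 members, 0 had an N+F tissue library far from the other 3 by Dixon's criterion, which chance passes in about 1 of 20 groups.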

How the results depend on the processing

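In tissue 0 members were called under all settings run. Leaving out single libraries moved the log2 differences of Pdia4 from -0.141 to 0.0262, Calr from -0.245 to 0.0162, Herpud1 from -0.154 to 0.00738 and Xbp1 from -0.15 to 0.15, so these turned sign; the cause was not tested. Of the wider lists 0 genes were called higher in tissue by edgeR, 2 by DESeq2, and 0 to 1 without single libraries (Nr4a1 without control 3). With the replicate number as a block (the replicate block fit), 0 members and 0 genes were called, against 17 genes without it. Same-numbered libraries had correlations of deviations of -0.00, -0.08 and 0.13, where all pairs of a control and an N+F library ran from -0.18 to 0.13. So few values cannot settle whether the numbers pair the libraries, and the labels do not say. The 17 genes became 131 with DESeq2 and 0 to 29 without single libraries. In culture a 1.5-fold threshold gave 2 members lower with amyloid beta (Herpud1 and Xbp1) and 2 higher with N+F (Hspa5 and Hsp90b1), each 0 at 2-fold. The share of all genes at 1.5-fold was not counted, so these counts stand without a background. At 2-fold that share was 21.5% lower with amyloid beta and 2.07% higher with N+F. The additive edgeR fit called 1 to 7 members higher and 0 to 2 lower with amyloid beta without single libraries (794 to 3874 and 1156 to 4107 of all genes), and 0 lower with the largest line of each symbol. With N+F DESeq2 called 477 genes, 0 of them members, against 0 in edgeR. Depth limits Trib3 in tissue and Atf3 and Trib3 in untreated glia, and culture groups of 1 library allow no replicate error.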

Other observations

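Repeated lines of a symbol in the culture table gave unlike profiles. Hspa5 has 2 lines whose log2 ratios with amyloid beta were 1.14 and 0.35 in hippocampal glia. In cortical glia they were 2.10 and 0.66. With N+F the hippocampal ratios were 0.64 and 0.52 and the cortical ratios 0.74 and 1.25, so the line with the larger cortical ratio differs between the comparisons. The smaller line of Atf4 had 417 counts in the cortical amyloid beta control, 1 in cortical N+F glia and 0 in the other 4 culture libraries. The files do not say what a line is.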
